A study of Homo sapiens with 24 samples.

Results

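The genes described here are 10 that carry cells through mitosis: the kinases AURKA, AURKB, PLK1 and BUB1, the cyclin CCNB1, the anaphase activator CDC20, the motor proteins KIF11 and CENPE, the DNA topoisomerase TOP2A and the transcription factor FOXM1. They were taken by symbol out of the 58721 genes of the count table, and all 10 were found and passed the filter on low counts. Their mRNA was followed in 24 libraries from RT112, a luminal papillary bladder cancer cell line, and SCaBER, a basal/squamous one. Each line received 6 treatments with 2 libraries each: a control siRNA (siControl number 2), a siRNA against the pioneer transcription factor FOXA1 (siFOXA1 number 1), 1 of 2 siRNAs against the transcription factor ZBED2 (siZBED2-1 or siZBED2-2), or siFOXA1 together with either ZBED2 siRNA (siFOXA1+siZBED2-1 and siFOXA1+siZBED2-2). All cells were transfected with Lipofectamine RNAiMAX in a short-term knock-down whose exact time is not given in the sources used here. RT112 was grown in RPMI and SCaBER in DMEM, both with serum, so that line and medium cannot be told apart. Per the labels FOXA1 was targeted by a single siRNA, so that effects of FOXA1 loss and of that sequence cannot be told apart.

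As background, entry into mitosis is driven by cyclin B1 (CCNB1) bound to the kinase CDK1, and PLK1 and Aurora A (AURKA) help to switch this complex on and to build the spindle poles. Aurora B (AURKB) corrects faulty attachments between chromosomes and spindle, BUB1 and CENPE act at the kinetochore, KIF11 pushes the spindle poles apart, and TOP2A untangles the DNA. CDC20 then activates the anaphase-promoting complex, which destroys cyclin B1. FOXM1 is a transcription factor that switches on many of these genes in late G2, and their mRNA is low in cells that do not cycle.

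The libraries were made from the 3' ends of mRNA and held 4425404 to 6119210 counts each, with 14121 to 16082 genes detected. Levels are given as CPM, counts scaled to a common library size after normalisation for library composition. A count of 3 in a library, taken as the limit of detection, came to 0.49 to 0.678 CPM. The targeted genes were checked first. FOXA1 stood at 42.2 and 41.3 CPM in the RT112 siControl libraries and at 6.84 and 9.46 CPM in the siFOXA1 libraries. In SCaBER it was scarce, with 20 and 28 counts under siControl and 4 and 6 under siFOXA1, but also a single count in the second siZBED2-1 library. ZBED2 went from 101 and 92 counts under siControl to 12 and 0 under siZBED2-1 and to 38 and 36 under siZBED2-2 in RT112. In SCaBER it went from 101 and 96 counts to 12 and 40 under siZBED2-1 and to 48 and 100 under siZBED2-2, so the second library labelled siZBED2-2 in SCaBER was at the control level. In RT112 the siFOXA1 libraries held only 27 and 7 counts of ZBED2. Of the 10 luminal urothelial markers, 7 were above the limit of detection in every RT112 library and 6 in every SCaBER library. They summed to 843 to 1514 CPM in RT112 and 124 to 187 CPM in SCaBER. In SCaBER, UPK1A, UPK3A and KRT20 were at 0 in every library. The 10 basal/squamous markers were all above the limit of detection in every SCaBER library and summed to 3747 to 6201 CPM. In RT112, 5 of these 10 were above it in every library, and the sum was 297 to 603 CPM. The 6 markers of leukocytes, stroma and endothelium summed to at most 5.75 CPM. The mitochondrial share of counts was 17.8% and 12.2% in the RT112 siControl libraries against 21.5% and 22.7% under siFOXA1. In SCaBER it was 9.74% and 10.7% under siControl against 12.9% and 12.5% under siFOXA1, and its part in the results was not tested in either line.

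In both lines the mRNA of all 10 genes fell under siFOXA1. Summed over the 10 genes, RT112 held 2538 and 2556 CPM under siControl and 968 and 439 CPM under siFOXA1. SCaBER held 2644 and 2408 CPM under siControl and 1207 and 927 CPM under siFOXA1. TOP2A weighs most in these sums, with 1506 and 1487 CPM of the RT112 and 1425 and 1267 CPM of the SCaBER siControl sums. The replicate libraries of the RT112 siFOXA1 group stood apart from each other, the second one lower. Without its second library the log2 fold changes of the 10 genes under siFOXA1 ran from -0.82 (BUB1) to -1.90 (CCNB1). Without its first library they ran from -1.92 (AURKB) to -3.57 (KIF11). Some further results that rest on that group are also given with 1 of its libraries left out, and the others with both libraries only. In these bulk cultures, fewer cells in mitosis and less of each mRNA per cell cannot be told apart.

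**Figure D1:**
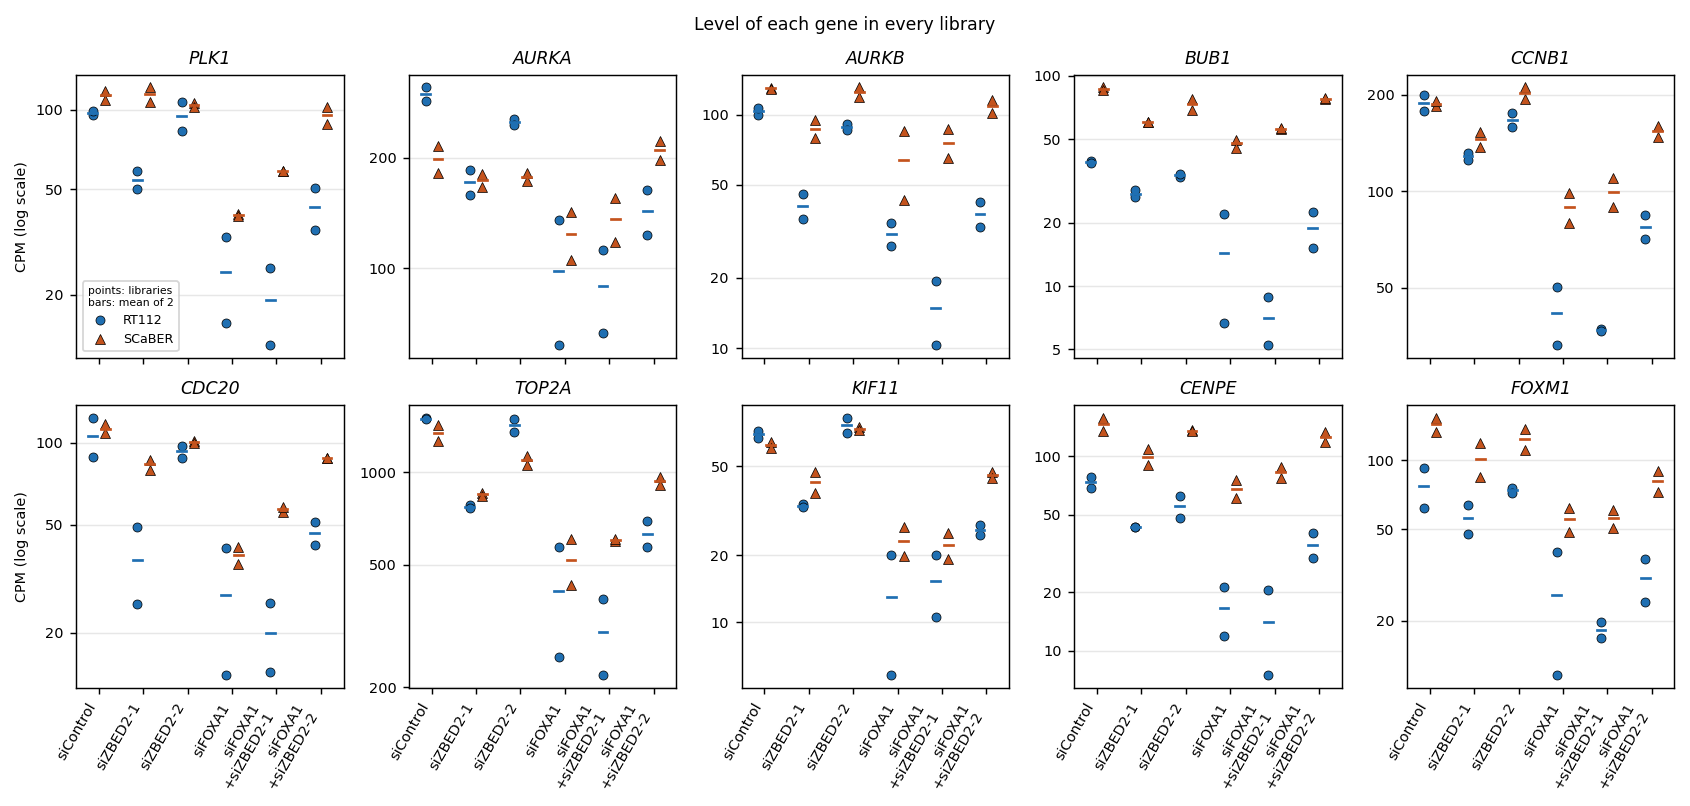
Level of each of the 10 genes in CPM (log scale, vertical) under the 6 treatments (horizontal), with circles for the RT112 libraries, triangles for the SCaBER libraries and a bar at the mean of the 2 libraries of a group. All siFOXA1 points lie below both siControl points of their line in the 10 panels, and the siZBED2-2 points lie near the siControl points.

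The first comparison asked what the FOXA1 siRNA did on its own. All 10 genes were called lower in RT112 (edgeR's quasi-likelihood test with Benjamini-Hochberg adjustment over all genes, adjusted p under 0.05), where 11.9% of the 13264 genes tested were called lower. All 10 were also called lower in SCaBER, where 9.12% of 13129 genes were. The median log2 fold change of the 10 genes was -1.90 in RT112 and -1.24 in SCaBER, beside medians of -0.01 and -0.02 over all genes tested. Both siFOXA1 libraries lay below both siControl libraries for 10 of 10 genes in each line, as they did for 31.7% of all genes in RT112 and 28.3% in SCaBER. Compared only within the same replicate number, which is called the batch here, the median difference was -1.51 and -2.56 in RT112 and -1.22 and -1.43 in SCaBER.

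Among the kinases, PLK1, the Polo-like kinase that acts from mitotic entry to cytokinesis, measured 94.9 and 98.7 CPM in the siControl libraries of RT112 and 32.99 and 15.7 CPM in its siFOXA1 libraries. This was a 3.96-fold lower level, with a log2 fold change of -1.99 (adjusted p = 2.37e-05, SE 0.30). For PLK1 in SCaBER the siControl libraries gave 118 and 109 CPM and the siFOXA1 libraries 40.2 and 39.7 CPM, a log2 fold change of -1.50 (adjusted p = 4.06e-08, SE 0.17). In neither line did the groups overlap, and PLK1 was the kinase with the greatest log2 fold change in each. AURKA, which matures the centrosomes, stood at 285 and 310.1 CPM under siControl and 135 and 61.9 CPM under siFOXA1 in RT112, a log2 fold change of -1.59 (adjusted p = 2.83e-05, SE 0.24). In SCaBER, AURKA stood at 215 and 182 CPM under siControl and 142 and 105 CPM under siFOXA1, and the log2 fold change of -0.68 (adjusted p = 0.00176, SE 0.16) was the smallest of the 10 genes in that line. Without the second siFOXA1 library AURKA was no longer called in SCaBER, at -0.48 (adjusted p = 0.0706). AURKB, the kinase of the chromosomal passenger complex, fell from 99.98 and 106 CPM to 34.2 and 27.3 CPM in RT112, a log2 fold change of -1.75 (adjusted p = 1.48e-05, SE 0.25). The SCaBER libraries held 129.9 and 129 CPM of AURKB under siControl and 85.04 and 42.9 CPM under siFOXA1, with a log2 fold change of -1.01 (adjusted p = 0.000448, SE 0.21). The SCaBER replicates of AURKB differed about as much from each other as the higher one did from the controls, and the log2 fold change was -0.61 without the second siFOXA1 library and -1.59 without the first. BUB1, which recruits checkpoint proteins to the kinetochore, measured 39.3 and 38.4 CPM under siControl and 21.9 and 6.66 CPM under siFOXA1 in RT112, a log2 fold change of -1.43 (adjusted p = 0.00825, SE 0.39). It was the gene whose call rested on 1 library in RT112, with -0.82 (adjusted p = 0.184) without the second siFOXA1 library and -2.54 without the first. For BUB1 in SCaBER the siControl libraries gave 88.01 and 85.8 CPM and the siFOXA1 libraries 49.8 and 45.6 CPM, close replicates with a log2 fold change of -0.87 (adjusted p = 0.000557, SE 0.18).

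CCNB1 and CDC20 mark the start and the end of the same event. CCNB1, the cyclin that activates CDK1, went from 178 and 199 CPM to 50.3 and 33.1 CPM in RT112, 4.51-fold lower with a log2 fold change of -2.17 (adjusted p = 1.1e-08, SE 0.19). In SCaBER, CCNB1 stood at 185 and 190.4 CPM under siControl and 79.5 and 98.7 CPM under siFOXA1, a log2 fold change of -1.08 (adjusted p = 2.55e-06, SE 0.15). The adjusted p of CCNB1 in RT112 was the smallest among the 10 genes of that line. CDC20, the activator of the anaphase-promoting complex, stood at 124 and 88.8 CPM under siControl and 41.04 and 13.97 CPM under siFOXA1 in RT112. Both siFOXA1 libraries were below both controls, though the spread within each group was wide, and the log2 fold change was -1.94 (adjusted p = 0.000184, SE 0.35). The SCaBER libraries held 109 and 117 CPM of CDC20 under siControl and 41.4 and 35.8 CPM under siFOXA1. There the log2 fold change of -1.54 (adjusted p = 3.46e-08, SE 0.17), 2.92-fold lower, was the greatest of the 10 genes.

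Of the motor proteins, KIF11, the kinesin that slides spindle microtubules apart, had the greatest log2 fold change in RT112, where it fell from 71.9 and 66.98 CPM to 20.1 and 5.80 CPM. This was 5.32-fold lower, with a log2 fold change of -2.41 (adjusted p = 2.28e-05, SE 0.36). The value was -1.78 without the second siFOXA1 library and -3.57 without the first, called both times. For KIF11 in SCaBER the siControl libraries gave 64.4 and 60.1 CPM and the siFOXA1 libraries 26.7 and 19.7 CPM, a log2 fold change of -1.42 (adjusted p = 1.95e-05, SE 0.23). CENPE, the kinesin that moves chromosomes to the spindle equator, went from 78.01 and 68.5 CPM to 21.1 and 11.8 CPM in RT112, a log2 fold change of -2.15 (adjusted p = 4.11e-05, SE 0.34). In SCaBER, CENPE stood at 158 and 135 CPM under siControl and 75.05 and 60.6 CPM under siFOXA1, a log2 fold change of -1.11 (adjusted p = 6.38e-06, SE 0.17). TOP2A, the enzyme that separates sister DNA molecules, measured 1506 and 1487 CPM under siControl and 571 and 251 CPM under siFOXA1 in RT112. Its log2 fold change there was -1.86 (adjusted p = 2.54e-06, SE 0.24). The SCaBER libraries held 1425 and 1267 CPM of TOP2A under siControl and 605 and 430.5 CPM under siFOXA1, and the log2 fold change of -1.38 (adjusted p = 1.22e-10, SE 0.12) had the smallest adjusted p of the 10 genes in that line. FOXM1, the transcription factor, measured 62.2 and 92.1 CPM under siControl and 40.03 and 11.6 CPM under siFOXA1 in RT112. Its groups did not overlap, but its replicates differed widely in both, and its log2 fold change of -1.57 (adjusted p = 0.00152, SE 0.35) became -0.95 (adjusted p = 0.0367) without the second siFOXA1 library and -2.73 without the first. For FOXM1 in SCaBER the siControl libraries gave 153 and 133 CPM and the siFOXA1 libraries 61.8 and 48.8 CPM, a log2 fold change of -1.37 (adjusted p = 1.42e-06, SE 0.19).

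Over the 10 genes in RT112, leaving out the second siFOXA1 library gave 9 calls and a median of -1.47, and leaving out the first gave 10 calls and a median of -2.60. Leaving out the second siFOXA1 library of SCaBER left 9 calls.

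**Figure D2:**
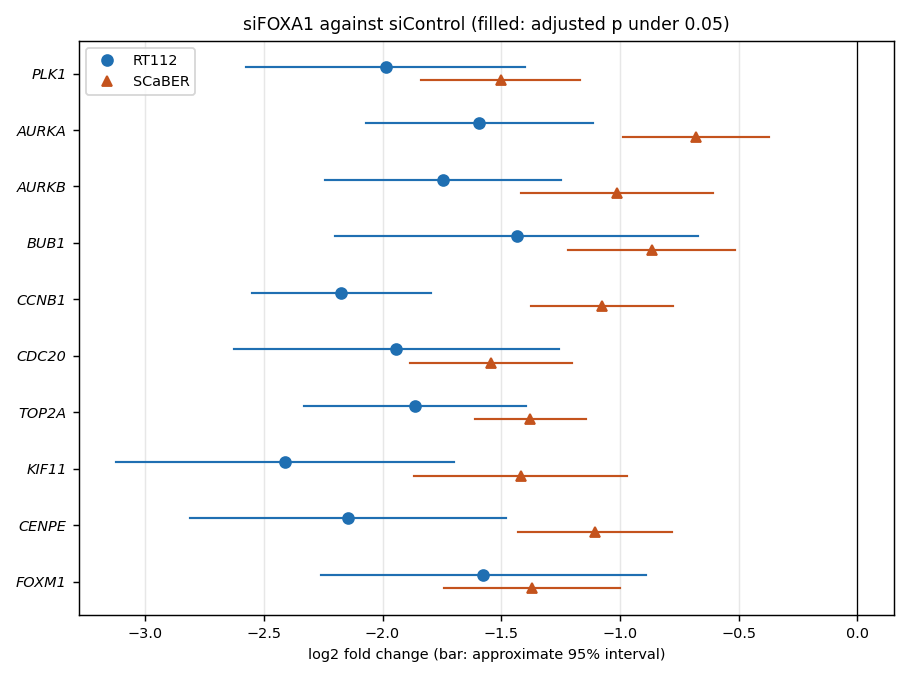
Log2 fold change of each of the 10 genes under siFOXA1 against siControl (horizontal, log2 scale), by line, with bars for the approximate 95% confidence interval and filled points for adjusted p under 0.05. All 20 points are filled and lie below 0, from -0.68 for AURKA in SCaBER to -2.41 for KIF11 in RT112.

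Most of the further mitotic genes listed here were also called lower under siFOXA1. The lists were chosen with earlier results of these data known, so their counts are descriptions only. Over all genes tested, 11.9% were called lower in RT112 and 9.12% in SCaBER. In 7 lists holding 83 further mitotic genes, 67 of the 80 tested in RT112 were called lower and 0 higher, with a median log2 fold change of -1.65. In SCaBER 63 of 82 were called lower and 0 higher, with a median of -1.20. Without the second siFOXA1 library of RT112 the count was 52 of 82 and the median -1.29, where 6.57% of all genes were called lower. Without the first it was 66 of 81 and -2.07. HASPIN, KIFC1 and SKA1 in RT112 and SKA1 in SCaBER were too low to be tested.

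The counts of each list are of genes called lower, and the gene named is the called one with the greatest log2 fold change. Of the cyclins, CDK1 and its regulators, 9 of 11 were called lower in RT112 and 7 of 11 in SCaBER. The greatest among them were cyclin A2, CCNA2, at -2.38 (adjusted p = 0.000112, SE 0.41) in RT112 and of cyclin B2, CCNB2, at -1.89 (adjusted p = 1.92e-08, SE 0.21) in SCaBER. Of the chromosomal passenger complex and the partners of the Aurora and Polo kinases, 6 of 7 were called lower in RT112, led by the Aurora B scaffold INCENP at -2.16 (adjusted p = 4.42e-05, SE 0.34). In SCaBER 6 of 8 were called lower, and the greatest of these changes was that of the centriole kinase PLK4 at -1.39 (adjusted p = 0.0243, SE 0.44). The spindle checkpoint and anaphase-promoting complex gave the lowest share of calls among these 7 lists, with 7 of 15 called lower in each line. Among the called genes, the inhibitor of that complex, FBXO5, had the greatest change in RT112 at -2.64 (adjusted p = 1.57e-06, SE 0.32), and the gene of separase, ESPL1, in SCaBER at -2.10 (adjusted p = 0.000437, SE 0.43).

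All 10 kinesins tested were called lower in RT112 and 9 of 11 in SCaBER, with KIF18B, which acts on microtubule ends, first among those called in both at -2.68 (adjusted p = 0.00117, SE 0.58) and -2.01 (adjusted p = 0.000177, SE 0.38). Of the kinetochore and centromere genes 13 of 15 were called lower in each line, and SPC25, a subunit of the Ndc80 complex that grips microtubules, led the called genes of both at -3.03 (adjusted p = 2.85e-06, SE 0.39) in RT112 and -2.83 (adjusted p = 0.000546, SE 0.58) in SCaBER. The spindle, centrosome and cytokinesis genes were called lower in 14 of 14 cases in RT112, where the spindle protein DLGAP5 stood at -2.28 (adjusted p = 5.08e-06, SE 0.31), and in 13 of 14 in SCaBER, where the spindle pole protein CKAP2L stood at -1.64 (adjusted p = 1.18e-07, SE 0.20). All 8 genes of mitotic chromosome structure were called lower in both lines, led by the proliferation marker MKI67 at -2.36 (adjusted p = 1.25e-06, SE 0.29) and -2.22 (adjusted p = 2.08e-12, SE 0.16).

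Of the transcriptional regulators of cell cycle genes, 2 of 14 were called lower in RT112, a share near the 11.9% of all genes called lower there. Their median log2 fold change was -0.77, and MYBL2, the MYB-family factor that works with FOXM1, had the greatest change among those called at -2.27 (adjusted p = 3.51e-06, SE 0.30). In SCaBER 4 of 14 were called lower, where 9.12% of all genes were, and 1 was called higher, with a median of -0.85. The gene that rose was CDKN1A, which encodes the CDK inhibitor p21, at 1.93 (adjusted p = 1.91e-11, SE 0.15). In RT112 its log2 fold change was 0.15 (adjusted p = 0.731, SE 0.25). DNA replication genes, kept as a comparison from S phase, were called lower in 13 of 18 cases in RT112 with a median of -0.95, and in 16 of 18 in SCaBER with a median of -1.11. Without the second siFOXA1 library of RT112 that count was 7 of 18. Thymidylate synthase, TYMS, had the greatest log2 fold change among the called genes of that list, at -2.44 (adjusted p = 1.46e-05, SE 0.36) in RT112 and -2.07 (adjusted p = 7.05e-08, SE 0.24) in SCaBER.

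**Figure D3:**
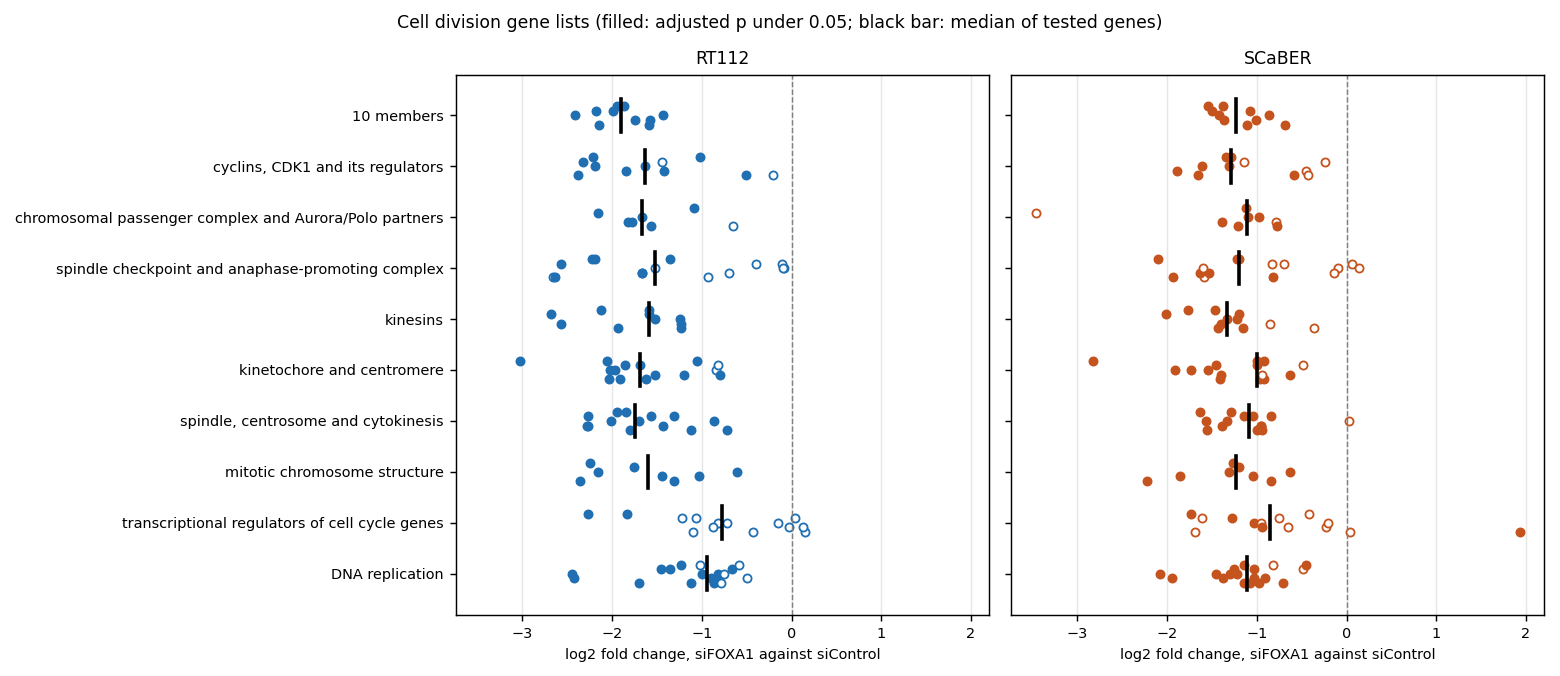
Log2 fold change under siFOXA1 against siControl of every tested gene (points, log2 scale) in the 10 genes and the 9 lists, for RT112 and SCaBER, with a black bar at each list's median. The 10 genes and the 7 mitotic lists have medians below 0 in both lines, and CDKN1A stands above the rest of its list at 1.93 in SCaBER.

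Most of the start regions examined hold short sequence elements that were not used to choose the genes. Many late cell cycle genes carry a cell cycle homology region (CHR), with the letters TTTGAA or TTCGAA, near a CCAAT box, the binding site of the factor NF-Y, and both were searched on either strand. Other spellings of these elements were not searched. RefSeq windows of GRCh38.p14, from 250 bases before to 50 bases after the start, were matched for 8 of the 10 genes, not for AURKA and FOXM1. The 250 bases before the start are printed for the genes with the greatest fold changes under siFOXA1 (KIF11 in RT112, CDC20 in SCaBER), for PLK1, which like KIF11 has 1 element of each kind, and for CENPE, which holds neither. They read 5' to 3' on the gene's own strand, with the elements in capitals. A reverse match reads TTCAAA or ATTGG, and TTCGAA is its own reverse complement. The windows lie at chr16:23678639-23678888 (plus strand) for PLK1, chr1:43358731-43358980 (plus) for CDC20, chr10:92592880-92593129 (plus) for KIF11 and chr4:103198344-103198593 (minus) for CENPE.
PLK1: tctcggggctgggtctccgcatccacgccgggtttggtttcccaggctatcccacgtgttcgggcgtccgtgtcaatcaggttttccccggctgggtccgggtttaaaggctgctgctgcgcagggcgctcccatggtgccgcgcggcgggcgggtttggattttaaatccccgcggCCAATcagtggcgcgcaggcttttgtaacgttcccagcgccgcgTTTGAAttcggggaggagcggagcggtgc
CDC20: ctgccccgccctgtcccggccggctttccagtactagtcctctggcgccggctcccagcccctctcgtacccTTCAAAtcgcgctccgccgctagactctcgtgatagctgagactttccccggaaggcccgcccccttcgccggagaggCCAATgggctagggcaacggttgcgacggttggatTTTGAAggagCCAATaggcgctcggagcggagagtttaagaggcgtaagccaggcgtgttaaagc
KIF11: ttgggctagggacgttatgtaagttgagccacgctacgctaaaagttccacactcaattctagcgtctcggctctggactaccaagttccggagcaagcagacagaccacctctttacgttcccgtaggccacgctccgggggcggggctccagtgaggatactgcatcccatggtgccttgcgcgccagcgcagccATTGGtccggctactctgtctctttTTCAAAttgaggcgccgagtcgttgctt
CENPE: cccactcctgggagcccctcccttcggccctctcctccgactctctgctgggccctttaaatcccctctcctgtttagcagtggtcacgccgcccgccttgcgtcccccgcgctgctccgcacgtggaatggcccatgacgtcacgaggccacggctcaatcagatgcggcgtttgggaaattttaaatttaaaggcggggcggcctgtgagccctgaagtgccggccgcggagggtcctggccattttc

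In PLK1 the CHR begins 29 bases before the start and the CCAAT box 73 bases before it. In KIF11 both matches are on the reverse strand, 28 and 53 bases before the start. CDC20 holds CHR matches at 178 (reverse strand) and 65 bases and CCAAT boxes at 100 and 55 bases before the start. CENPE holds neither element in the searched spellings, and its only match to the forkhead motif TAAACA is on the reverse strand, 179 bases before the start. Over the whole 300-base windows, a CHR match was found in 5 of the 8 genes, against 16.4% of 35116 RefSeq windows. It was found in 53 of the 72 genes of the mitotic lists that had a window (73.6%) and in 2 of 16 DNA replication genes (12.5%). A CCAAT box was found in 7 of the 8 genes, in 65.3% of the mitotic lists, in 75% of the replication genes and in 34.6% of all windows. Both together were found in 5 of 8 genes, 52.8% of the mitotic lists and 6.38% of all windows, and TAAACA in 1 of 8 genes against 12.3%. CENPE, without either element in the searched spellings, fell under siFOXA1 by 2.15 on the log2 scale in RT112 and by 1.11 in SCaBER, inside the range of the 10 genes in each line. A match of letters is a description of the sequence and says nothing of whether a factor binds there.

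The second comparison asked what the ZBED2 siRNAs did alone, and they differed. Under siZBED2-1, 5 of the 10 genes were called lower in RT112, where 4.45% of all genes were. The 10 genes had a median log2 fold change of -0.81. CDC20 had the greatest, with 48.97 and 25.4 CPM under siZBED2-1 and 124 and 88.8 CPM under siControl, a log2 fold change of -1.51 (adjusted p = 0.00501, SE 0.34). AURKB followed with 45.6 and 35.6 CPM and a log2 fold change of -1.34 (adjusted p = 0.000719, SE 0.25). KIF11, at 33.9 and 32.7 CPM, changed by -1.06 (adjusted p = 0.0494, SE 0.34). The other 2 called genes were TOP2A, with 782 and 765 CPM and -0.95 (adjusted p = 0.00856, SE 0.23), and AURKA, with 185 and 158 CPM and -0.79 (adjusted p = 0.0339, SE 0.24). PLK1 at -0.83 (adjusted p = 0.0701) and CCNB1 at -0.56 (adjusted p = 0.0531) were not called, but were with the replicate number as a block, at adjusted p of 0.0201 and 0.0273. CENPE stood at -0.76 (adjusted p = 0.153), BUB1 at -0.50 (adjusted p = 0.514) and FOXM1 at -0.47 (adjusted p = 0.483). Both siZBED2-1 libraries lay below both controls for 9 of 10 genes, all but FOXM1, as they did for 26.1% of all genes. The count of 5 fell to 3 without the first siZBED2-1 library or the second siControl library, to 2 without the second siZBED2-1 library, and to 4 without the first siControl library.

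In SCaBER 2 of the 10 genes were called lower under siZBED2-1, where 2.45% of all genes were, and the median was -0.51. TOP2A went from 1425 and 1267 CPM to 855 and 840.3 CPM, a log2 fold change of -0.67 (adjusted p = 0.000323, SE 0.12). CENPE went from 158 and 135 CPM to 109 and 89.7 CPM, a log2 fold change of -0.56 (adjusted p = 0.0386, SE 0.16). The 7 other genes had values between -0.20 (AURKA, adjusted p = 0.607) and -0.57 (AURKB, adjusted p = 0.109) and were not called. PLK1 stood at 121 and 107 CPM and was not called, with a log2 fold change of 0.01 (adjusted p = 0.99, SE 0.16), with an approximate 95% confidence interval from -0.31 to 0.32. Both siZBED2-1 libraries were below both controls for 9 of 10 genes, all but PLK1, against 23.6% of all genes. Leaving out any 1 library of either group left 1 of the 2 calls. Within the same replicate number the median difference from siControl was -0.77 and -0.96 in RT112 and -0.49 and -0.48 in SCaBER. The second siZBED2-1 library, which held 1 count of FOXA1, had a sum over the 10 genes of 1747 CPM, beside 1761 CPM in the first. The median log2 difference of the 10 genes from the siControl mean was -0.47 in the second and -0.43 in the first.

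Under siZBED2-2, 0 of the 10 genes were called by edgeR in either line, beside 0.166% of all genes called in RT112 and 0.625% in SCaBER. At an unadjusted p under 0.05 the count was 0 in RT112, beside 764 of the 13264 genes tested. In SCaBER it was 1, TOP2A at -0.30, beside 992 of 13129. DESeq2 and limma also called 0 in both lines. Values ran from -0.40 for CENPE to 0.14 for KIF11 in RT112, with a median of -0.19, and from -0.30 to 0.24 in SCaBER, with a median of -0.14. In RT112 9 of the 10 values were below 0, beside 6653 of 13264 genes tested. In SCaBER 8 were, beside 6564 of 13129. For PLK1 the approximate 95% confidence interval was -0.58 to 0.52 in RT112 and -0.43 to 0.20 in SCaBER. The second library labelled siZBED2-2 in SCaBER had ZBED2 at the control level. Within the same replicate number the median difference was -0.17 and -0.18 in RT112 and -0.17 and -0.08 in SCaBER. The siRNAs were then compared directly. In RT112, 4 of the 10 genes were called lower under siZBED2-1 than under siZBED2-2, where 4% of all genes were: CDC20 at -1.32 (adjusted p = 0.0156, SE 0.34), KIF11 at -1.20, AURKB at -1.12 and TOP2A at -0.88. That count was 2 without the first and 0 without the second siZBED2-1 library, 3 without the first siZBED2-2 library, and 6 with the batch block. In SCaBER it was 1, KIF11 at -0.80 (adjusted p = 0.0294, SE 0.22), where 2.4% of all genes were called lower. It was 3 with the batch block and 0 without any 1 of the 4 libraries.

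Averaged over both ZBED2 siRNAs, 1 gene was called lower in each line. In RT112 it was AURKB at -0.78 (adjusted p = 0.0388, SE 0.21), where 1.04% of all genes were called lower, and with the batch block 4 of the 10 genes were called. The AURKB call was lost, leaving 0, without any 1 of the siControl or siZBED2-2 libraries or the second siZBED2-1 library, and 2 genes were called without the first siZBED2-1 library. In SCaBER it was TOP2A at -0.48 (adjusted p = 0.00439, SE 0.10), where 0.8% were called lower, and 0 were called without the first siControl library. Under siZBED2-1 alone, 4.45% of all genes were called lower in RT112 and 2.45% in SCaBER. In the 7 mitotic lists, 33 of 80 genes were called lower under siZBED2-1 in RT112 with a median of -0.82. In SCaBER it was 18 of 82 with a median of -0.49. In both lines 0 of them were called higher under siZBED2-1, and 0 were called in either direction under siZBED2-2. The DNA replication genes were called lower under siZBED2-1 in 7 of 18 cases in RT112 and 10 of 18 in SCaBER.

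**Figure D4:**
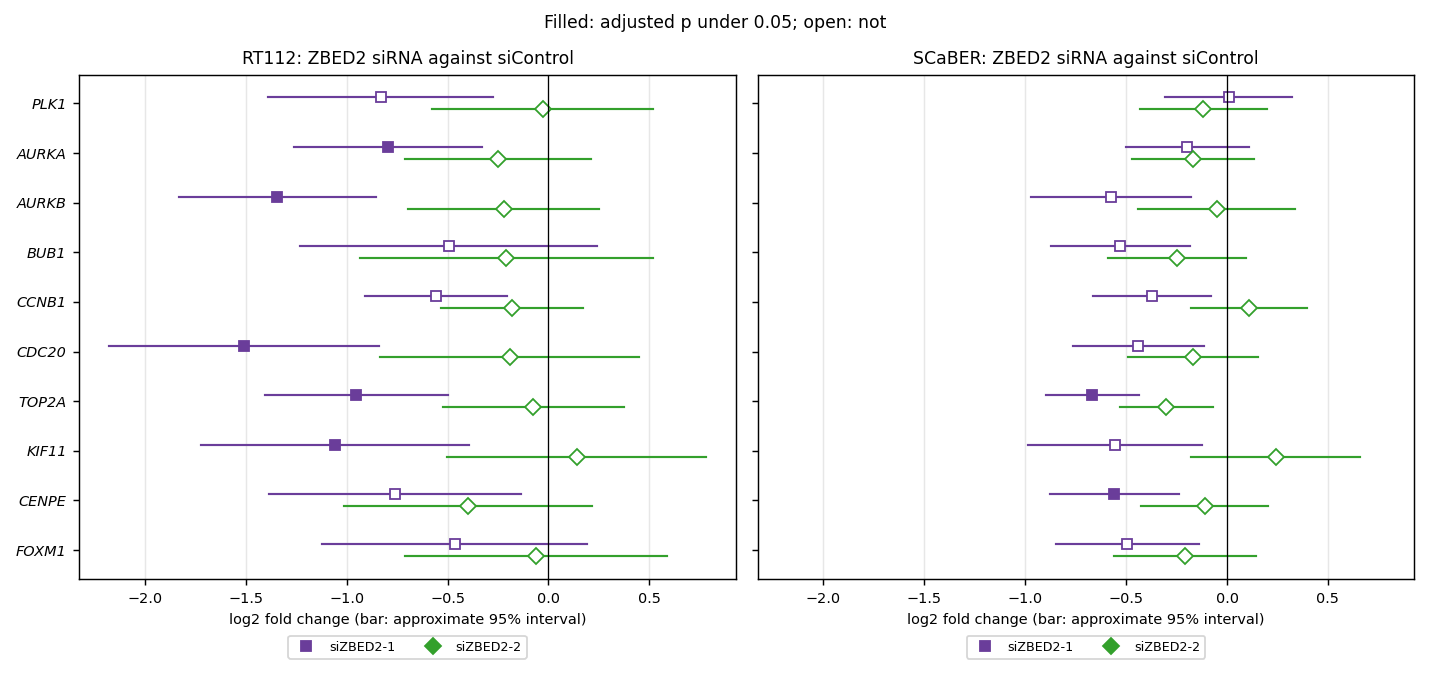
Log2 fold change of each of the 10 genes under siZBED2-1 and siZBED2-2 against siControl (horizontal, log2 scale), by line, with bars for the approximate 95% confidence interval and filled points for adjusted p under 0.05. Filled points are those of 5 genes in RT112 and 2 in SCaBER, all under siZBED2-1.

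The third comparison asked what a ZBED2 siRNA added to the FOXA1 siRNA. Averaged over both double knock-downs, all 10 genes were called lower than under siControl in RT112, where 10.3% of all genes were called lower, with a median log2 fold change of -1.77. AURKA had the smallest value, -1.39 (adjusted p = 1.14e-05, SE 0.20), and AURKB the greatest, -2.13 (adjusted p = 4.8e-08, SE 0.21). In SCaBER 8 of the 10 genes were called lower, where 5.79% of all genes were, with a median of -0.60. FOXM1 at -1.09 (adjusted p = 4.72e-06, SE 0.15) and KIF11 at -0.96 led, and BUB1 at -0.40 (adjusted p = 0.0848) and AURKA at -0.23 (adjusted p = 0.306) were not called. Without the first siControl library the SCaBER count was 5.

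Set against siFOXA1 alone in SCaBER, 5 of the 10 genes were called higher in the double knock-downs, where 2.06% of all genes were. The ZBED2 counts there were 100 and 84 under siFOXA1, 20 and 8 with siZBED2-1 added and 49 and 57 with siZBED2-2 added, and FOXA1 had 0 to 3 counts in the 4 double libraries. PLK1 stood at 40.2 and 39.7 CPM under siFOXA1, 58.8 and 58.5 CPM under siFOXA1+siZBED2-1 and 88.5 and 103 CPM under siFOXA1+siZBED2-2. All 4 double libraries were above both siFOXA1 libraries, and the log2 difference was 0.91 (adjusted p = 0.000247, SE 0.15). CDC20 stood at 41.4 and 35.8 CPM under siFOXA1, 55.8 and 57.9 CPM with siZBED2-1 and 87.7 and 88.2 CPM with siZBED2-2 added, a log2 difference of 0.87 (adjusted p = 0.000509, SE 0.16). The other 3 were CENPE at 0.59 (adjusted p = 0.0157, SE 0.15), TOP2A at 0.54 (adjusted p = 0.00134, SE 0.10) and CCNB1 at 0.47 (adjusted p = 0.0405, SE 0.14). The 5 genes not called ran from 0.28 for FOXM1 (adjusted p = 0.446) to 0.50 for AURKB (adjusted p = 0.138), and AURKA at 0.45 (adjusted p = 0.0629) was called with the batch block, at adjusted p = 0.0106. The count was 3 without the second siFOXA1 library of SCaBER. CCNB1 lost its call without the first siFOXA1 library or the first library of either double knock-down. CENPE and TOP2A lost theirs, at 0.44 and 0.32, without the second siFOXA1 library. CENPE also lost it without the second siFOXA1+siZBED2-1 library, at 0.54. In the same line 24 of 82 genes of the mitotic lists were called higher than under siFOXA1 and 0 were called lower, with a median of 0.55, and 4 of the 18 replication genes were called higher.

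In RT112 edgeR called 0 of the 10 genes for the double knock-downs against siFOXA1, where 1.96% of all genes were called. Values ran from -0.39 for AURKB to 0.61 for KIF11. At an unadjusted p under 0.05 the count was 1, CCNB1 at 0.36, beside 1883 of the 13264 genes tested. DESeq2 called 0 of the 10. Without the first siFOXA1 library, the higher one, the count was 3.

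Because the ZBED2 siRNAs differed when given alone, each double knock-down was also taken by itself, a choice made after the data were seen. In SCaBER siFOXA1+siZBED2-2 was called higher than siFOXA1 for 9 of the 10 genes, where 2.25% of all genes were, with FOXM1 at 0.55 (adjusted p = 0.113) as the exception. PLK1 led at 1.26 (adjusted p = 1.7e-05, SE 0.17), followed by CDC20 at 1.19 (adjusted p = 4.08e-05, SE 0.17) and KIF11 at 0.98 (adjusted p = 0.00962, SE 0.23). With siFOXA1+siZBED2-1 edgeR called 0 of the 10 (2 at an unadjusted p under 0.05), where 2.73% of all genes were called, and the nearest were CDC20 at 0.56 (adjusted p = 0.0899) and PLK1 at 0.55 (adjusted p = 0.0831). KIF11 stood at 25.2 and 19.3 CPM with siZBED2-1 and at 47.4 and 44.2 CPM with siZBED2-2, beside 26.7 and 19.7 CPM under siFOXA1 alone. Tested directly, 5 genes were called lower in siFOXA1+siZBED2-1 than in siFOXA1+siZBED2-2, where 1.07% of all genes were. They were KIF11 at -1.04 (adjusted p = 0.0127, SE 0.23), PLK1 at -0.70, TOP2A at -0.64, CCNB1 at -0.62 and AURKA at -0.62.

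In RT112 the double knock-downs differed from each other in the same direction, with 5 genes called lower in siFOXA1+siZBED2-1, where 1.15% of all genes were. CCNB1 stood at 37.2 and 36.6 CPM against 84.2 and 70.8 CPM, a log2 difference of -1.07 (adjusted p = 0.00243, SE 0.19). AURKB stood at 19.3 and 10.3 CPM against 42.1 and 32.9 CPM, a difference of -1.34 (adjusted p = 0.00731, SE 0.27). TOP2A at -1.06, CENPE at -1.32 and PLK1 at -1.17 were the others. FOXA1 stood at 4.04 and 11.3 CPM in the siFOXA1+siZBED2-1 libraries and at 15.6 and 9.91 CPM in the siFOXA1+siZBED2-2 libraries, beside 6.84 and 9.46 CPM under siFOXA1. ZBED2 had 9 and 7 counts in the first of these groups and 12 and 4 in the second, beside 27 and 7 under siFOXA1 alone, and the part of these target levels in the difference was not tested. Against siFOXA1 itself, AURKB was lower in siFOXA1+siZBED2-1 at -1.06 (adjusted p = 0.0319, SE 0.27), where 0.995% of all genes were called lower. CCNB1 was higher in siFOXA1+siZBED2-2 at 0.89 (adjusted p = 0.0172, SE 0.19), where 0.897% were called higher.

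Whether a ZBED2 siRNA acted differently on the FOXA1 knock-down than on control cells was tested as an interaction, the change on siFOXA1 minus the change on siControl, with the mean of both siRNAs. In SCaBER it was positive and called for 5 of the 10 genes, where 1.07% of all genes were called higher, with a median of 0.83. CDC20 had 1.17 (adjusted p = 0.000904, SE 0.21), TOP2A 1.02 (adjusted p = 5.85e-05, SE 0.14), PLK1 0.96 (adjusted p = 0.00659, SE 0.21), CENPE 0.92 (adjusted p = 0.00758, SE 0.20) and BUB1 0.86 (adjusted p = 0.0256, SE 0.22). The siZBED2 libraries used include the second siZBED2-2 library, with ZBED2 at the control level, and the second siZBED2-1 library, with 1 count of FOXA1. With the batch block 8 genes were called, CCNB1, AURKB and AURKA being added. The count was 3 without the first siControl library. BUB1 lost its call without either siControl library, the second siZBED2-1, siZBED2-2 or siFOXA1 library or the second siFOXA1+siZBED2-1 library, and CENPE lost it without the first siControl or the second siFOXA1 library. Of the mitotic lists 31 of 82 genes were called higher, with a median of 0.81, and 7 of 18 replication genes were. With siZBED2-1 alone in the interaction 2 genes were called, CDC20 and TOP2A, where 0.708% of all genes were called higher, and with siZBED2-2 alone 6 were, where 0.838% were. In RT112 edgeR called 0 of the 10, where 0.611% of all genes were called. All 10 values were above 0, from 0.04 to 1.07 with a median of 0.69. An unadjusted p under 0.05 was found for 6 of them, beside 1609 of the 13264 genes tested. DESeq2 also called 0, and 5 were called without the first siFOXA1 library.

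**Figure D5:**
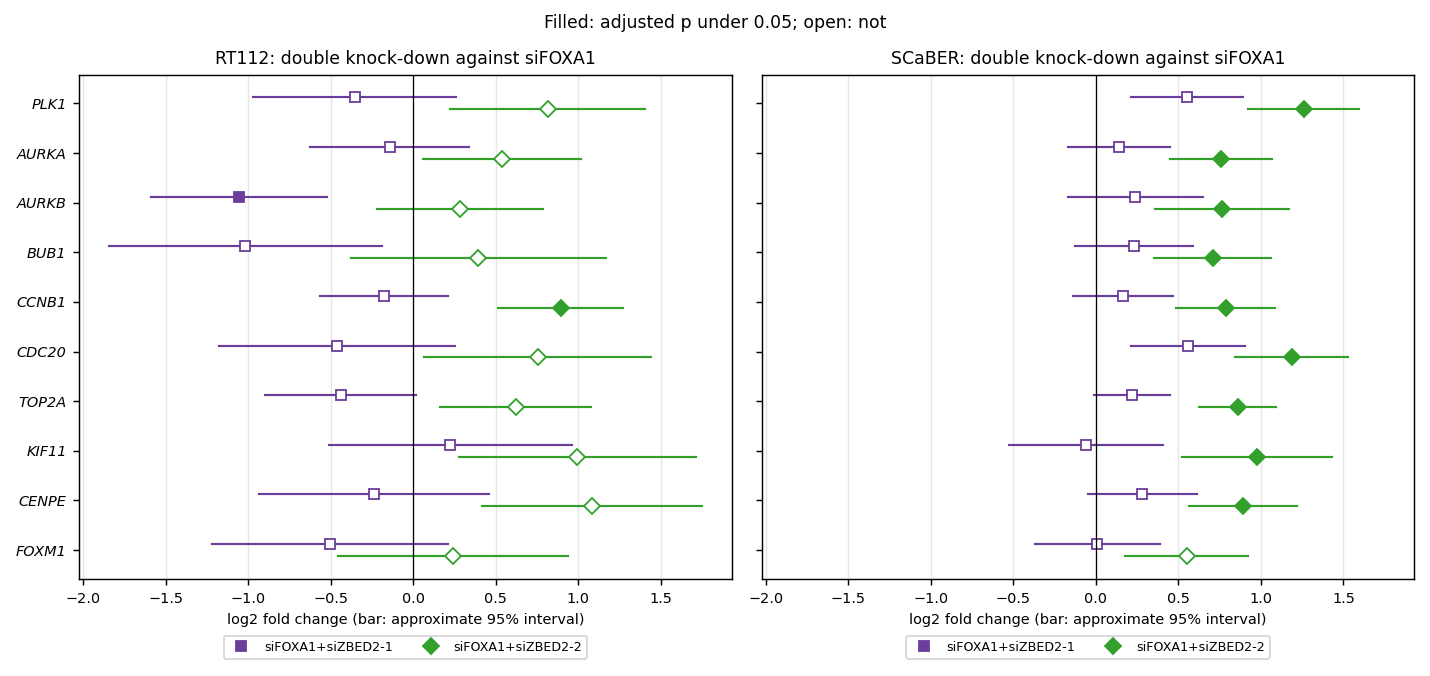
Log2 difference of each of the 10 genes between each double knock-down and siFOXA1 alone (horizontal, log2 scale), by line, with bars for the approximate 95% confidence interval and filled points for adjusted p under 0.05. In SCaBER 9 genes are filled and above 0 with siZBED2-2 added and 0 with siZBED2-1 added. In RT112 the filled points are AURKB below 0 with siZBED2-1 and CCNB1 above 0 with siZBED2-2.

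The last comparison set the lines against each other in a fit of all 24 libraries. Under siControl, 3 of the 10 genes were called higher in SCaBER, where 17.2% of all genes were, and 1 was called lower, where 16.4% were. BUB1 was higher at 1.15 (adjusted p = 0.00156, SE 0.28), CENPE at 0.98 (adjusted p = 0.00205, SE 0.25) and FOXM1 at 0.87 (adjusted p = 0.0184, SE 0.29). FOXM1 was not called with the batch block, at 0.64 (adjusted p = 0.0982). AURKA was lower at -0.60 (adjusted p = 0.0382, SE 0.22), and leaving out any 1 of the 4 siControl libraries left 3 calls. The other 6 genes lay between -0.17 and 0.31.

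The change under siFOXA1 differed between the lines for 1 of the 10 genes, CCNB1, where 1.41% of all genes had a called difference of the same sign. CCNB1 had a difference of 1.10 (adjusted p = 0.00807, SE 0.24): its log2 fold change was -2.17 in RT112 and -1.08 in SCaBER. All 10 differences were above 0, from 0.21 to 1.10. At an unadjusted p under 0.05 there were 5, beside 2239 of the 14823 genes tested. By adjusted p the count was 1. It was 0 without the second siFOXA1 library of RT112 (CCNB1 at 0.83, adjusted p = 0.112) or that of SCaBER (0.95, adjusted p = 0.056), and 8 without the first siFOXA1 library of RT112. With the batch block it was 3, CENPE at 1.08 (adjusted p = 0.0407) and AURKA at 0.98 (adjusted p = 0.0213) being added. The change under the ZBED2 siRNAs differed between the lines for 0 of the 10 genes by edgeR, where 0.0742% of all genes were called. At an unadjusted p under 0.05 the count was also 0, beside 944 of the 14823 genes tested.

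Across the libraries the 10 genes kept close to each other. Over the 12 libraries of a line, the 45 pairs had Pearson's r between 0.86 and 0.994 in RT112 (median 0.941) and between 0.682 and 0.958 in SCaBER (median 0.865) on log2 CPM. These are descriptions over libraries that share treatments and depth. Among 8604 genes, those whose level followed the mean of the 10 genes most closely over the 24 libraries, each centred on its line, were TPX2 (r = 0.990), the activator of Aurora A, and CEP55 (0.986), a cytokinesis protein. They were followed by the securin PTTG1 (0.984), MYBL2 (0.977), the ribonucleotide reductase subunit RRM2 (0.977), the ubiquitin-conjugating enzyme UBE2C (0.975), the passenger protein BIRC5 (0.975) and the condensin subunit NCAPG (0.972). The lowest r were those of CAPZA1 (-0.933), which caps actin filaments, the RNA uridylyltransferase TUT7 (-0.933), TMED9 (-0.926), a cargo protein of the early secretory pathway, and the lipid phosphatase LPIN1 (-0.921). Under siFOXA1 the log2 fold change of LPIN1 was 1.80 in RT112 and 0.70 in SCaBER, and that of TUT7 was 1.07 and 0.73. TMED9 had 0.81 and 0.59, and CAPZA1 0.79 and 0.53. These genes were picked by r over the same libraries, the siFOXA1 ones included, so their rise is not a separate result.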

How the data were processed

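Libraries were prepared from total RNA with a 3' mRNA-Seq kit (QuantSeq FWD, Lexogen) from 24 samples labelled by line, siRNA and replicate number. Per the labels and methods, the authors checked reads with raw-qc 2.1.0, trimmed them with TrimGalore 0.6.2 (minimum quality 20, minimum length 10) and aligned them with STAR 2.6.1a on hg38, counting reads per gene of GENCODE 29. The methods text names hg19 for this step, so the build is not settled, and no coordinate was taken from it. The deposited values are raw counts per gene and, in a second table, TPM. The program that made the authors' TPM values is not given in the sources used here. TPM divides by gene length, which does not suit reads from 3' ends, so the counts were used for every main result and the deposited TPM only for alternatives. Levels are compared between libraries, and between genes only where the weight of TOP2A in the sums is named.

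Counts were tested with edgeR 4.0.16 in R 4.3.3 (TMM normalisation, a filter by group with a minimum count of 10 and total of 15, quasi-likelihood test). Each line was fitted with its 12 libraries and 6 groups, and the lines were compared in a fit of all 24. P-values were adjusted by Benjamini-Hochberg over all genes tested and called under 0.05. The SE is the log2 fold change divided by the square root of the F statistic, and confidence intervals are normal approximations at 95%. Of 58721 genes, 34121 had no count. Depth was 4425404 to 6119210 counts per library, and the limit of detection covers counting error only. Alternatives were other size factors, no filter, DESeq2 1.42.0, limma 3.58.1 on log2(TPM + 1) and log2(TPM + 0.1), leaving out each library, and the replicate number as a block. The sample titles give that number only as a replicate, which is where the pairing comes from, and the text calls it the batch. Deviations of same-numbered libraries correlated at a mean r of 0.04 in RT112 and 0.0327 in SCaBER, over 0.1 in 0 of 15 pairs in each line. No source says that replicates were separate cultures, so p-values measure the spread between these samples, which may be technical. Replicate libraries differed beyond counting noise in every group.

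The 10 genes and the gene lists were chosen with earlier results of these data known, so their counts are descriptions beside those over all genes. Beyond the 10 genes, the text names the siRNA targets, in each list the called gene with the greatest change under siFOXA1 and any that moved against its list, and the 8 genes of highest and 4 of lowest Pearson's r with the mean of the 10 over 24 libraries, among genes of at least 10 CPM. The values of CDKN1A in RT112 were added after they were seen. Sequences came from RefSeq (GRCh38.p14), matched by symbol.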

Additional observations from a re-analysis of the deposited data

Results flagged for a closer look

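The change of CCNB1 under siFOXA1 differed between the lines by 1.10 on the log2 scale (SCaBER minus RT112, adjusted p = 0.00807 by edgeR), the only call among the 10 genes. All 10 differences were above 0, from 0.21 to 1.10 with a median of 0.65, and CENPE and AURKA were also called with the replicate block. The siFOXA1 libraries of CCNB1 were below its siControl libraries in both lines. Without the second siFOXA1 library of RT112 the difference was 0.83 (adjusted p = 0.112), and without that of SCaBER it was 0.95 (adjusted p = 0.056).

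In SCaBER the change that a ZBED2 siRNA made on top of siFOXA1 differed from the change it made on top of siControl for 5 genes, each past the threshold of the interaction test. The log2 differences were 1.17 for CDC20, 1.02 for TOP2A, 0.96 for PLK1, 0.92 for CENPE and 0.86 for BUB1. By limma on either TPM scale 2 genes were called. Without the second siFOXA1 library the difference was 0.77 for CENPE and 0.79 for BUB1. The siZBED2 libraries used include the second siZBED2-2 library, with ZBED2 at the control level, and the second siZBED2-1 library, with 1 count of FOXA1.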

How the results depend on the processing

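Under siFOXA1 against siControl all 10 genes stayed called in both lines under each alternative other than leaving out a library, and they stayed called in the RT112 double knock-downs against siControl under every alternative. The TPM values moved the median of all genes under siFOXA1 by -0.261 in RT112 and -0.129 in SCaBER with 1 added before the log (-0.325 and -0.152 with 0.1), and normalisation by library size alone moved it by -0.111 and -0.0916. The 10 genes had medians of -2.21 and -1.35 with 1 added. The cause of the other changes listed here was not tested, beyond the lower number of samples where a library is left out, which leaves a group with a lone sample assumed to vary like the other groups.

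Counts of the 10 genes called moved as follows. Averaged over the ZBED2 siRNAs, RT112 had 1 call, but 4 without a filter, 4 with the replicate block and 0 by limma on either TPM scale, and SCaBER had 1 call and 0 by limma on either scale. Under siZBED2-1, RT112 had 5 calls, but 3 by DESeq2 and 1 by limma on either scale, and SCaBER had 2 calls and 1 by limma on either scale. Between the ZBED2 siRNAs, RT112 had 4 calls, but 2 by DESeq2 and 1 by limma on either scale. SCaBER had 1 there, but 2 without a filter, 2 by DESeq2, 3 with the replicate block and 0 by limma on either scale. For the double knock-downs against siControl, SCaBER had 8 calls, and 6 to 9 under the alternatives that kept every library. For the double knock-downs against siFOXA1, SCaBER had 5 calls, 3 by limma on either scale, 0 with siFOXA1+siZBED2-1 taken alone and 9 with siFOXA1+siZBED2-2 taken alone, and RT112 had 0 calls and 1 with either taken alone. For the interaction SCaBER had 5 calls, 2 by limma on either scale, 8 with the replicate block and 2 with siFOXA1+siZBED2-1 alone, and RT112 had 0 calls and 2 without a filter. Between the lines, the siFOXA1 change had 1 call, but 3 without a filter, 2 by DESeq2, 3 with the replicate block and 0 by limma on either scale, and siControl had 4 calls, but 2 by DESeq2 and 2 by limma on log2(TPM + 0.1). The replicate block changed no call beyond those given beside the results.

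Leaving out 1 library at a time, the counts ran from 9 to 10 for siFOXA1 in each line. For siZBED2-1 RT112 gave 2 to 4 and SCaBER 1 each time. For the mean of both ZBED2 siRNAs RT112 gave 0 to 2 and SCaBER 0 to 1, and between these siRNAs RT112 gave 0 to 4 and SCaBER 0. Against siControl the double knock-downs gave 10 in RT112 and 5 to 8 in SCaBER, and against siFOXA1 0 to 3 and 3 to 6. The interaction gave 0 to 5 in RT112 and 3 to 7 in SCaBER. Between the lines, siControl gave 3 each time and the siFOXA1 change 0 to 8.

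Values that changed sign were not called. PLK1 under siZBED2-1 in SCaBER went from 0.01 to -0.0241 with library size alone, -0.0221 and -0.0225 by limma with 1 and 0.1 added, -0.0731 without the first siZBED2-1 library and -0.0336 without the second siControl library, in a range of -0.0731 to 0.107 over the libraries left out. Between the lines under siControl, CCNB1 went from -0.02 to 0.0239 without a filter, 0.227 and 0.228 by limma and 0.0668 without the second RT112 siControl library. By limma KIF11 became 0.0743 and 0.0763 and TOP2A 0.0784 and 0.0786. CDC20 became -0.219 with the replicate block and -0.142 without the second RT112 siControl library, in a range up to 0.321. For the siFOXA1 change between lines, FOXM1 became -0.109 without the second RT112 siControl library and, without the second RT112 siFOXA1 library, -0.419, CDC20 -0.174 and BUB1 -0.0402, while without the first one these were 1.36, 1.37 and 1.66. KIF11 with siFOXA1+siZBED2-1 against siFOXA1 in SCaBER was -0.0600. All genes called under siFOXA1 in RT112 numbered 3084, and 2024 to 3389 under the alternatives, or 1869 to 2870 with a library left out. Other comparisons moved more, for example 1167 called genes for siZBED2-1 in RT112, and 267 to 1495 under the alternatives.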
